A study of Homo sapiens with 32 samples.

Results

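Cannabidiol (CBD), a non-intoxicating compound of the cannabis plant, was compared with vehicle after 6 h in SK-N-BE(2) cells, a human neuroblastoma line that carries many copies of MYCN. The 8 samples at 6 h were 4 cultures given 20 μM CBD in ethanol and 4 given ethanol alone, out of 32 polyA RNA-seq samples of a time course at 3, 6, 12 and 24 h with 4 samples of each treatment at each time. The cells had been plated in 6-well dishes and left overnight before treatment. The labels name no genetic change in any sample, and 1 cell line at 1 dose was measured, so what is described holds for that line and dose. Values were deposited as FPKM, reads scaled by transcript length and by the mapped reads of the library. All 22610 entries of the table were read, and the 12621 with a mean of at least 1 FPKM over the 32 samples were tested with limma on log2(FPKM + 1). A gene is said to rise, fall or change where its adjusted p was under 0.01, and each fold change is on that log2 scale, which understates the change of weakly expressed genes.

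Metallothioneins are small cysteine-rich proteins that bind zinc, copper and cadmium. Their genes are switched on by the zinc-sensing factor MTF1, which also acts on the zinc exporter SLC30A1. Sterol synthesis is run by SREBP2, a membrane-bound factor released when cholesterol in the endoplasmic reticulum falls, and INSIG1 is both its target and its brake. ATF4 drives amino acid uptake and synthesis when translation initiation is restrained, NRF2 drives antioxidant and glutathione genes, and HIF drives genes of low oxygen. These programs are used below to order the genes.

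At 6 h, 514 genes were higher with CBD (4.07% of those tested) and 774 were lower (6.13%). These shares are the background for every count of a gene group at 6 h below. Most of the changes at 6 h were small. The median size of a called change was 0.17 log2 units, and 41 genes changed by at least 0.5, of which 30 rose and 11 fell. Changes of at least 1 log2 unit were found in 13 genes, 11 higher and 2 lower. The 4 CBD samples lay wholly above the 4 vehicle samples for 1068 genes (8.46%) and wholly below for 1401 (11.1%). Fitted with the 8 samples at 6 h alone, 425 genes passed (187 higher, 238 lower), and 414 of them were among the 1288. With 1 of the 8 samples left out, 923 (without CBD replicate 2) to 1543 genes (without CBD replicate 4) passed, and each of the 7 leave-outs other than CBD replicate 4 gave fewer than 1288.

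No difference in relative depth between the treatments at 6 h was found by the test used, which has little power with 4 samples against 4. Between 19449 and 19688 entries per sample were above 0. The relative depth read from the steps of low FPKM values was 0.988 ± 0.054 with CBD and 1.05 ± 0.056 with vehicle (SD, n = 4, exact permutation test, two-sided, p = 0.171). CBD replicates 1, 3 and 4 (0.958, 0.965 and 0.960) lay below every vehicle sample (0.9815 to 1.106), and CBD replicate 2 stood at 1.07. Like depth is thus not shown. All 20 defining neuroblastoma markers were measured above the filter, and their summed level was 5141 to 5202 FPKM with CBD against 4831 to 4966 with vehicle, so the treatments did not overlap. MYCN, the most abundant of them, stood at 1814 to 1960 FPKM against 1421 to 1504. The higher sum thus does not mean that the markers rose as a set. Of the 15 adrenergic factors among them, 4 had a log2 fold change above 0 and 11 below 0. None of the 6 glial and 6 blood markers in the file passed the filter, and no gene of either list exceeded 0.762 FPKM in any sample at 6 h. Summed markers of the mesenchymal neuroblastoma state overlapped between the treatments (457 to 476 with CBD, 467 to 480 with vehicle). Of 7 keratinocyte markers in the file 1 passed the filter, and their sum overlapped as well (1.94 to 2.52 FPKM with CBD, 2.05 to 2.66 with vehicle). In bulk samples, fewer cells of a kind and less RNA per cell cannot be told apart.

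**Figure D1:**
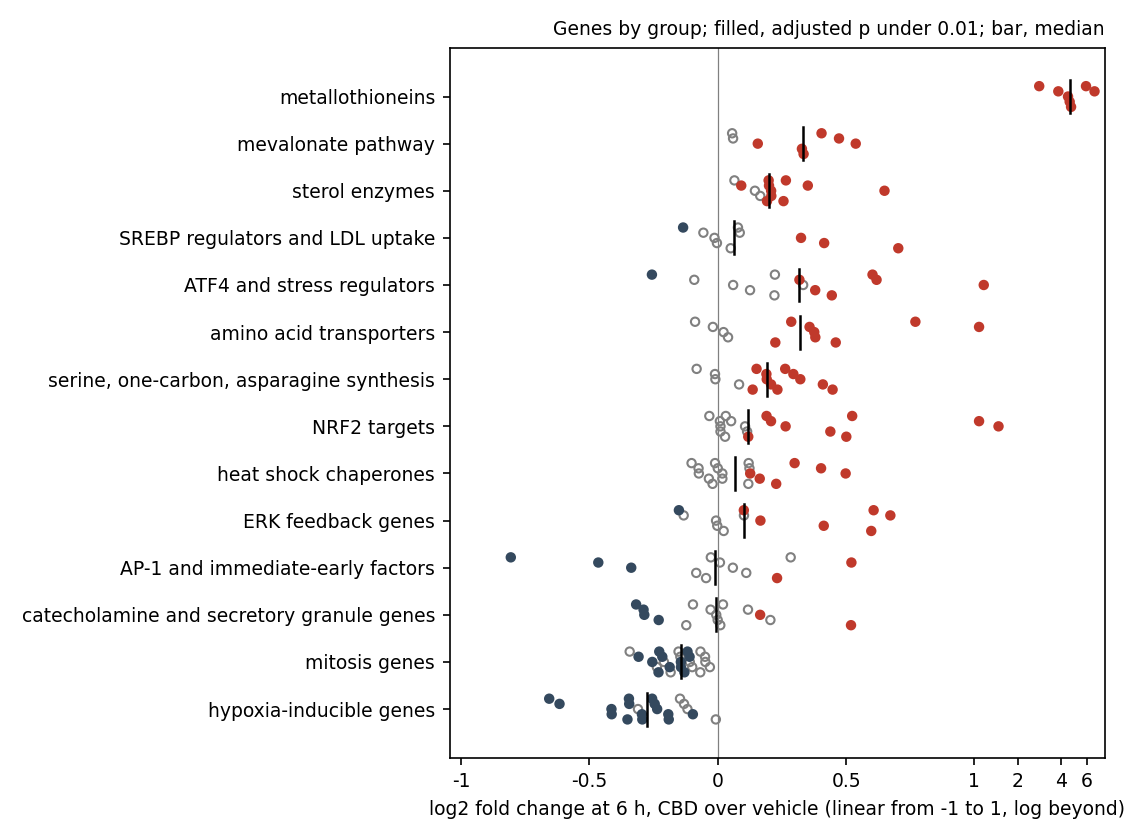
Each point is a gene, placed by its log2 fold change at 6 h (CBD over vehicle, linear between -1 and 1 and log beyond) in 14 gene groups; filled points passed an adjusted p of 0.01, red higher and dark blue lower, and the black bar is the group's median. The 7 metallothioneins lie far to the right of every other group, and the 20 hypoxia-inducible and 24 mitosis genes all lie left of 0.

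The largest rises at 6 h belonged to the metallothioneins, which sit in a cluster on chromosome 16. The 250 bases upstream of 3 of them and of SLC30A1 are printed because these are metal-linked genes that rose and for which the sequence table held a window. Capitals mark the core of the metal response element, TGCACNC or TGCGCNC read on either strand, which is the site MTF1 binds. The sequences are from RefSeq, 5′ to 3′ in the direction of the gene and ending at the base before its start, and their places in GRCh37 (hg19) were found by exact match. They are chr16:56703476-56703725 on the plus strand for MT1H, chr16:56716132-56716381 on the plus strand for MT1X, chr16:56642246-56642495 on the plus strand for MT2A, and chr1:211752504-211752753 on the minus strand for SLC30A1.
MT1H: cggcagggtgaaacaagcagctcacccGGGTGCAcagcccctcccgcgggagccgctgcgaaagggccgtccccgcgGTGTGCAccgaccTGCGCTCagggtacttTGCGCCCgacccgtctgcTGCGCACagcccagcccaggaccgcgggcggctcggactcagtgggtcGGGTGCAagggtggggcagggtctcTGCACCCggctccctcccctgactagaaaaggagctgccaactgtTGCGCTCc
MT1X: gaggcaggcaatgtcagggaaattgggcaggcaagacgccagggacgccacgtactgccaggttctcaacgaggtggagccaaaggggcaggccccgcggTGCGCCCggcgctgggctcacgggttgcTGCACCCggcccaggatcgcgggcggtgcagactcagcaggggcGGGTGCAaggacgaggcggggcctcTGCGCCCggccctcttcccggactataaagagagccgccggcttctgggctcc
MT2A: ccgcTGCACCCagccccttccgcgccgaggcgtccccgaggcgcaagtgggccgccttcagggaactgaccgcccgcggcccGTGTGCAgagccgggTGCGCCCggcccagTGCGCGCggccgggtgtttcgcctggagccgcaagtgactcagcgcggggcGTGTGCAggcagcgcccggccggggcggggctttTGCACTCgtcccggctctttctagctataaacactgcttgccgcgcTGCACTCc
SLC30A1: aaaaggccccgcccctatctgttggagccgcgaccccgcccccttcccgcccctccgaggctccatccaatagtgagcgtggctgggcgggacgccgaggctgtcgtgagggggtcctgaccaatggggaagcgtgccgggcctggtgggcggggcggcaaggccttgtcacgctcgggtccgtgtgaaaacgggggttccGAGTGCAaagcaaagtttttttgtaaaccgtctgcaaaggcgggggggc
The core occurs 8 times upstream of MT1H, 4 times upstream of MT1X, 7 times upstream of MT2A and 1 time upstream of SLC30A1. Of 35116 RefSeq windows of the same length, 24.8% held it at least once and 1.58% at least 3 times. The table held windows for 5 metallothionein genes, MT1B, MT1H, MT1X, MT2A and MT4, and each had at least 3 copies. A match of letters is a description and not a binding site.

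All 7 metallothionein genes that passed the filter rose, against 4.07% of all genes. That filter is a mean over all 32 samples, CBD samples included. The vehicle means at 6 h were 0.261 FPKM for MT1G, 0.196 for MT1E, 0.362 for MT1F, 0.0151 for MT1M and 0 for MT1H. These genes passed the filter through samples in which they were higher, so the count of 7 was largely fixed in advance. MT2A and MT1X stood above 1 FPKM in vehicle as well. MT2A, the most abundant of the 7, stood at 245, 524, 310 and 251 FPKM in the 4 CBD samples and at 11.8, 10.4, 12.0 and 11.5 in the vehicle samples. Its mean was 29.1 times higher (log2 fold change 4.67 ± 0.18 SE, adjusted p = 1.01e-16). MT1X (chr16:56716382-56718108) stood at 155, 350, 198 and 149 FPKM with CBD and between 7.22 and 7.59 with vehicle. The 4 CBD samples lay far above the vehicle samples for both genes, and CBD replicate 2 was the highest for each.

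MT1G, hardly expressed in vehicle cultures (0.122 to 0.393 FPKM), reached 106, 260, 138 and 95.8 FPKM with CBD, a mean 576 times higher (log2 fold change 6.80 ± 0.21). MT1E was between 0.0412 and 0.281 FPKM in vehicle and at 50.7, 157, 67.5 and 49.2 with CBD. MT1F was between 0.304 and 0.480 in vehicle and at 23.3, 44.6, 28.1 and 23.4 with CBD. The lowest CBD sample of each gene was thus far above the highest vehicle sample. MT1H was listed at 0 in all 4 vehicle samples and at 4.76, 11.5, 5.48 and 4.23 FPKM with CBD. MT1M was listed at 0 in 3 vehicle samples and at 0.0603 in the other, against 7.70, 34.8, 13.0 and 8.53 with CBD. No fold is given for these last 2 genes. Each of the 7 passed with an adjusted p of at most 6.00e-11. MT1A, MT1B, MT1L and MT3 were in the file but under the filter. MT1L stood at 0.993, 1.80, 0.985 and 0.684 FPKM with CBD and at most at 0.189 with vehicle, and MT3, the brain metallothionein, was listed at 0 in all 4 CBD samples. Metallothionein genes resemble each other, and MT1X shares 18.7% of its 50-base words with other transcripts and MT2A 4.48%, so the split of reads among members is uncertain.

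**Figure D2:**
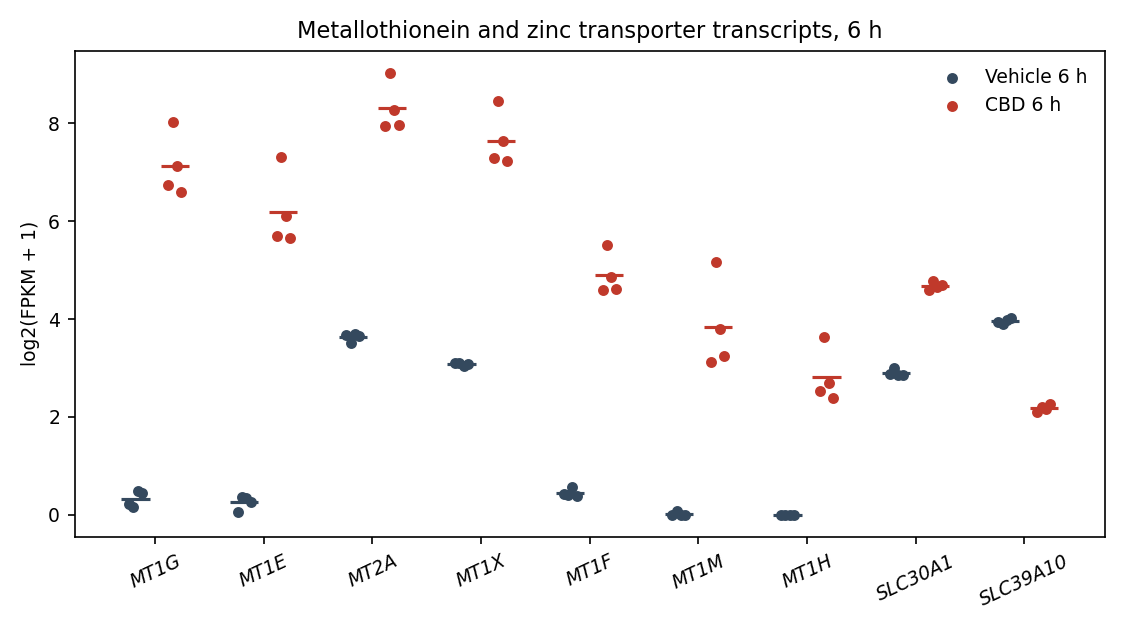
Points are the 4 vehicle (dark blue) and 4 CBD (red) samples at 6 h for 7 metallothionein genes, SLC30A1 and SLC39A10, on a log2(FPKM + 1) axis, with lines at the means. For every metallothionein the highest CBD point is replicate 2, while SLC30A1 (23.2 to 26.3 FPKM) and SLC39A10 (3.31 to 3.77) vary little among the CBD samples.

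The CBD samples differed widely among themselves on the metallothioneins. The summed FPKM of the 7 genes was 593, 1382, 761 and 581 in CBD replicates 1 to 4, and 18.7 to 20.3 in the vehicle samples. Replicate 2 was 1.91 to 4.08 times the median of the other 3 CBD samples, gene by gene. All 7 genes passed whichever of the 8 samples was left out.

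The metal-linked transporters moved in opposite directions. SLC30A1, the plasma membrane zinc exporter (chr1:211744910-211752503, minus strand), stood at 23.2, 26.3, 24.3 and 24.9 FPKM with CBD and at 6.33, 6.99, 6.25 and 6.25 with vehicle, 3.82 times higher (log2 fold change 1.78 ± 0.037, adjusted p = 8.28e-23). SLC39A10, a zinc importer of the plasma membrane (chr2:196440701-196602426, plus strand), stood at 3.31, 3.596, 3.49 and 3.77 FPKM with CBD and at 14.3, 13.97, 14.8 and 15.4 with vehicle. That is a ratio of 0.243 (log2 fold change -1.78 ± 0.044, adjusted p = 4.94e-21), the largest fall of any called gene. Neither gene's groups overlapped.

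Other zinc transporters moved little. Of 5 exporters tested, SLC30A6 also rose, by 0.13 log2 units (adjusted p = 0.000837, and 0.0348 with the 6 h samples fitted alone), and SLC30A5, SLC30A7 and SLC30A9 did not pass. Of 11 importers tested, SLC39A10 was the single one to pass. SLC39A4 had a log2 fold change of 0.23 and SLC39A6, the relative that pairs with SLC39A10, of -0.12, neither past the threshold. The medians were 0.035 for exporters and 0.028 for importers, beside -0.005 over all genes tested.

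Set beside the neighbouring times, the metallothioneins stood highest at 6 h. The summed FPKM was 829 ± 378 in CBD samples at 6 h, after 232 ± 56.0 at 3 h, and was 417 ± 48.4 at 12 h and 56.1 ± 10.9 at 24 h (SD, n = 4), with vehicle means from 3 to 24 h of 21.8, 19.7, 17.7 and 13.3. The change of the CBD effect from 3 h to 6 h passed for all 7 genes, against 0.705% of all genes in that direction, and ranged from 1.68 for MT2A to 2.23 for MT1G. This count of 7 depends on the filter in the same way as the count of rises at 6 h. From 6 h to 12 h the effect on MT1X fell by 1.29 log2 units (adjusted p = 0.00265). For the other 6 the change to 12 h was between -1.74 and -0.31 and did not pass. The effect on SLC30A1 was 1.88 at 3 h, its change to 6 h of -0.10 did not pass (adjusted p = 0.31), and by 12 h it fell by 0.85. The effect on SLC39A10 went from -1.18 at 3 h to -1.78 at 6 h, a change that passed, and returned to -0.72 at 12 h and 0.03 at 24 h. Both comparisons of effect use the same 8 samples at 6 h.

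**Figure D3:**
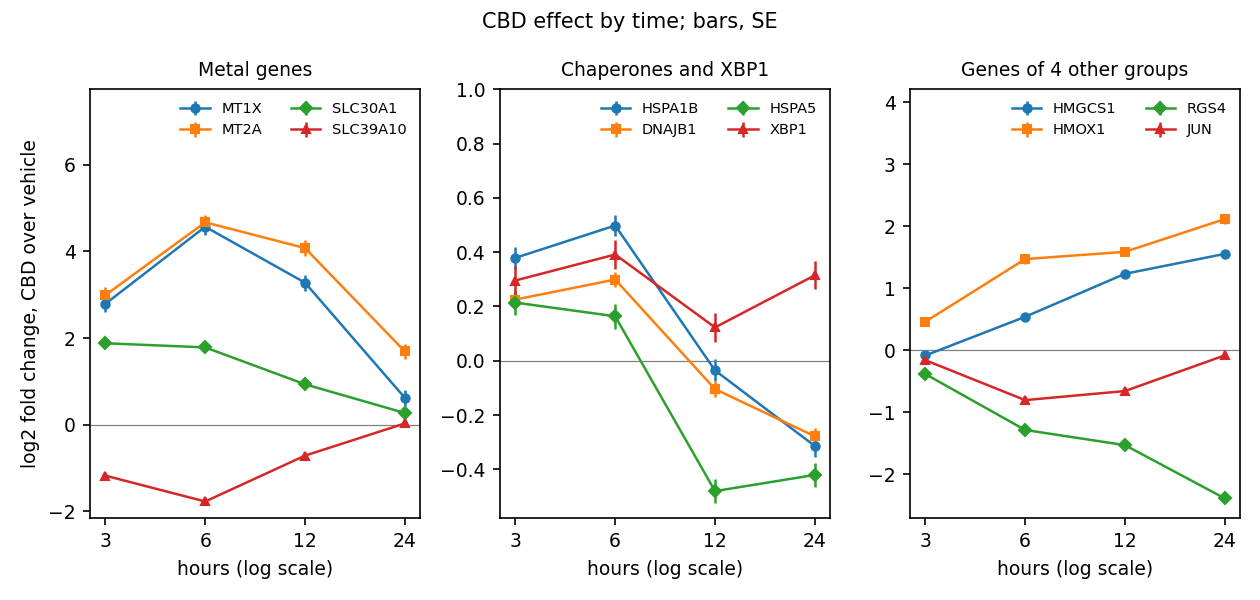
Log2 fold changes (CBD over vehicle) with SE at 3, 6, 12 and 24 h (log time axis) for metal genes, chaperones with XBP1, and 4 genes of other groups. MT1X and MT2A stand highest and SLC39A10 lowest at 6 h, the chaperones HSPA1B and DNAJB1 go from above 0 at 6 h to 0 or below at 12 h, and HMGCS1 goes from -0.09 at 3 h to 0.54 at 6 h.

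Sterol genes rose together at 6 h after showing no rise at 3 h. At 3 h 2 of 13 enzymes from squalene to cholesterol and 3 of 10 SREBP regulators were lower with CBD. None of 8 mevalonate pathway genes was lower at that time. At 6 h, of 8 mevalonate pathway genes, which lead to farnesyl diphosphate, 6 rose and none fell, with a median of 0.33 log2 units. The share rising among all genes was 4.07%. HMGCS1, which makes HMG-CoA, stood at 128, 118, 126 and 126 FPKM with CBD and at 83.5, 82.5, 87.0 and 88.9 with vehicle (1.46 times, log2 fold change 0.54 ± 0.040). The lowest CBD sample was well above the highest vehicle sample. MVD (0.47), IDI1 (0.33), MVK (0.33) and ACAT2 (0.16) also rose, while FDPS and PMVK were both at 0.06 and did not pass.

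Of 13 enzymes from squalene to cholesterol, 10 rose, against 4.07% of all genes, and none fell, with a median of 0.20. With the 6 h samples fitted alone, 6 of them passed. MSMO1, the methyl sterol oxidase, stood at 113, 101, 109 and 109 FPKM with CBD and at 68.0, 68.2, 69.0 and 68.8 with vehicle (1.58 times, log2 fold change 0.65 ± 0.033, adjusted p = 5.82e-14). SQLE, the squalene epoxidase, stood at 149, 142, 152 and 142 against 114, 115, 113 and 115 (0.35 ± 0.025). DHCR7 (0.27), HSD17B7 (0.26), CYP51A1 (0.21), SC5D (0.21), NSDHL (0.20), EBP (0.20), FDFT1 (0.19) and LBR (0.09) also passed. LSS (0.14) and TM7SF2 (0.17) were among those that did not.

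Among the SREBP regulators, INSIG1 changed most, from 39.6 to 40.9 FPKM in vehicle to 68.8, 64.5, 69.4 and 62.5 with CBD (1.65 times, log2 fold change 0.70 ± 0.033). STARD4, a sterol carrier, rose by 0.41. MYLIP, a ubiquitin ligase, fell by 0.14 on the log2 scale and did not pass with the 6 h samples fitted alone (adjusted p = 0.0192). The factors themselves, SREBF1 (0.08) and SREBF2 (0.05), did not pass, nor did SCAP, MBTPS1, MBTPS2 or INSIG2. Of 10 genes tested in that group, 3 rose and 1 fell, beside 4.07% and 6.13% of all genes.

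**Figure D4:**
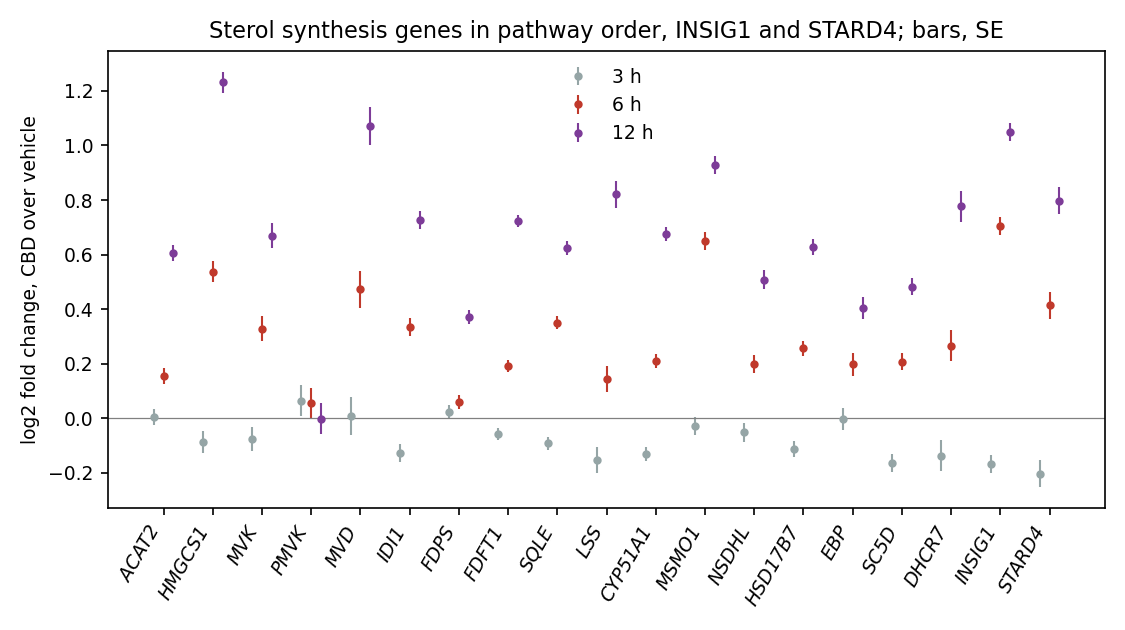
Log2 fold changes (CBD over vehicle) with SE at 3 h (grey), 6 h (red) and 12 h (purple) for 17 genes in pathway order from ACAT2 to DHCR7, then INSIG1 and STARD4. Every 6 h point except that of PMVK lies between the 3 h and the 12 h point, and INSIG1 and STARD4 are below 0 at 3 h.

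The rise at 6 h was a change from 3 h, and larger still at 12 h for most sterol genes. From 3 h to 6 h the CBD effect increased in 5 of 8 mevalonate genes and 8 of 13 later enzymes, against 0.705% of all genes. From 6 h to 12 h it increased again in 7 and 10 of them, against 1.43%. At 3 h INSIG1 was lower with CBD (-0.17, adjusted p = 0.00252), so that its change of effect from 3 h to 6 h was 0.87. HMGCS1 went from -0.09 at 3 h to 0.54 at 6 h and 1.23 at 12 h. Of all genes higher at 6 h, 25 had both a larger effect than at 3 h and a still larger one at 12 h. Of these, 17 were mevalonate, sterol, SREBP or fatty acid genes of the lists used here. The others named by this count include RET, the receptor tyrosine kinase of neuroblasts (0.46 at 6 h), TMEM97, a sterol-regulated membrane protein (0.21), and LRP8. None of 11 cholesterol transport and efflux genes passed at 6 h. Of these, 3 were higher at 12 h and 8 at 24 h, beside 1117 and 2623 of all 12621 genes, and none was lower at those times.

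Of 12 fatty acid synthesis genes, 4 rose at 6 h, against 4.07% of all genes. They were ACSS2, which makes cytosolic acetyl-CoA (0.26), SCD, the stearoyl-CoA desaturase (0.21), ELOVL5 (0.16) and ME1 (0.12). The last 2 did not pass with the 6 h samples fitted alone. FASN stood at 0.06 and did not pass. At 12 h all 12 were higher. ACSS2 stood at 6.36, 6.40, 6.47 and 6.25 FPKM with CBD and at 5.16, 5.31, 5.05 and 5.15 with vehicle at 6 h, and its effect grew by 0.76 to 12 h. The effect on FABP3, a fatty acid carrier outside that group, grew by 0.97. The sterol element TCACNCCAC occurred in none of 9 windows of mevalonate genes and none of 12 windows of sterol enzymes, and in 0.883% of all 35116 windows. At so low a share none is the likely outcome in so few windows, so this says only that these letters are not in those windows. The windows covered 6 of the 8 mevalonate genes and 10 of the 13 sterol enzymes.

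Genes of amino acid supply rose. Of 12 amino acid transporters, 8 rose, against 4.07% of all genes, and none fell (median 0.32). SLC7A11, the cystine importer, stood at 2.25, 2.96, 2.56 and 2.73 FPKM with CBD and at 0.688, 0.666, 0.717 and 0.788 with vehicle, 3.67 times higher (log2 fold change 1.08 ± 0.096). SLC3A2, the heavy chain it pairs with, stood at 102, 112, 107 and 97.1 against 62.6, 63.8, 59.0 and 58.2 (0.77 ± 0.054). SLC7A5, which shares that heavy chain and imports leucine, rose by 0.46. Neither SLC38A1 nor SLC38A2, the glutamine transporters, passed (0.04 and 0.02). From 3 h to 6 h the effect grew for SLC7A11 (by 0.61) and SLC3A2 (by 0.49).

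ATF4, encoding the factor named above, stood at 264, 286, 273 and 265 FPKM with CBD and at 211, 211, 203 and 209 with vehicle (0.38 ± 0.037). Of 13 ATF4 and stress regulators, 6 rose, against 4.07% of all genes, and VLDLR fell (-0.26). CHAC1, which breaks down glutathione, stood at 12.7, 16.2, 14.97 and 12.8 against 5.93, 5.83, 5.83 and 5.40 (2.46 times, log2 fold change 1.16 ± 0.10). SESN2 (0.62), CEBPB (0.60), DDIT3, encoding CHOP (0.44), and STC2 (0.32) followed. DDIT3 was not called with the 6 h samples fitted alone (adjusted p = 0.0353). TRIB3 (0.33), ATF3 (0.22) and PPP1R15A (-0.09) did not pass. For none of the 13 did the effect change from 3 h to 6 h or from 6 h to 12 h by this test.

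Of 15 genes of serine, folate-linked carbon and asparagine synthesis, 11 rose, against 4.07% of all genes, and none fell (median 0.19). The rises were led by ASNS, the asparagine synthetase (0.45), PSAT1 (0.41) and GPT2 (0.32). ASNS shares 45.4% of its 50-base words with an overlapping transcript, so part of its value may belong there. Of 20 cytosolic tRNA synthetases 6 rose, against 4.07% of all genes. They were GARS (0.30), AARS (0.27), YARS (0.26), CARS (0.25), MARS (0.24) and SARS (0.17), and the other 14 did not pass.

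Of 18 NRF2 targets tested, 9 rose, against 4.07% of all genes, and none fell (median 0.12). HMOX1, which breaks down heme, stood at 4.23, 4.93, 4.55 and 3.92 FPKM with CBD and at 1.11, 0.816, 0.844 and 1.04 with vehicle, 4.63 times higher (log2 fold change 1.47 ± 0.072, adjusted p = 2.54e-14). GCLM (0.52), the regulatory subunit of glutathione synthesis, NQO1 (0.50), SLC48A1, a heme transporter (0.44), FTH1, ferritin heavy chain (0.26), and TXNRD1 (0.21) rose as well. SRXN1 (0.11) and GSR (0.03) did not pass. The effect grew from 3 h to 6 h for 4 of the 18, by 1.01 for HMOX1, and for none of them did it change from 6 h to 12 h by this test.

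Heme and iron genes split. ALAS1, the first and rate-limiting enzyme of heme synthesis outside red cells, stood at 6.14, 5.75, 6.33 and 5.89 FPKM with CBD and at 11.5, 11.3, 10.9 and 11.1 with vehicle, a ratio of 0.540 (log2 fold change -0.79 ± 0.035). TFRC, the transferrin receptor, stood at 54.2, 53.01, 53.97 and 53.7 against 72.6, 74.6, 75.2 and 76.8 (-0.47 ± 0.028). Within each treatment these values lay close together, and the groups were far apart. ALAD also fell (-0.13), while FECH rose by 0.12 beside HMOX1 and FTH1. With the 6 h samples fitted alone neither ALAD nor FECH passed (adjusted p = 0.0121 and 0.0299). The TFRC effect grew in size both from 3 h to 6 h and from 6 h to 12 h.

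Cytosolic and ER chaperones rose at 6 h in part, and several of these effects were smaller at 12 h. Of 18 heat shock chaperones 6 rose (median 0.07), against 4.07% of all genes. With the 6 h samples fitted alone 4 rose. HSPA1B, an inducible HSP70, stood at 31.5, 29.3, 30.4 and 32.8 FPKM with CBD and at 21.6, 22.2, 20.6 and 22.2 with vehicle (0.50 ± 0.040). HSPA1A (0.40) shares 73.7% of its 50-base words, mostly with HSPA1B, so the pair cannot be counted apart. DNAJB1, a co-chaperone, stood at 94.1, 92.9, 93.1 and 90.8 against 75.9, 75.9, 73.6 and 75.3 (0.30 ± 0.029). The effect on HSPA1B fell by 0.53 from 6 h to 12 h and that on DNAJB1 by 0.40, to -0.04 and -0.10. HSP90AB1 (-0.08), HSPD1 (-0.01) and HSPH1 (0.12) did not pass.

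Of 20 genes of the ER chaperone and XBP1 group 5 rose, against 4.07% of all genes. They were XBP1 itself (0.39), HERPUD1 (0.35), SDF2L1 (0.30), DNAJB9 (0.19) and EDEM1 (0.18). In this group 3 were left when the 6 h samples were fitted alone or without vehicle replicate 3. HSPA5, the main ER chaperone BiP, stood at 99.1, 101, 97.7 and 109 FPKM with CBD and at 92.1, 88.7, 90.4 and 90.8 with vehicle. The groups did not overlap, but its log2 fold change of 0.16 missed the threshold (adjusted p = 0.0117). At 12 h it was lower with CBD (-0.48), a change of effect of -0.64 that passed. At 12 h 8 of the 20 genes were lower and 1 was higher.

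ERK signalling induces a set of genes, some of which restrain it. Of 12 such genes tested, 6 rose, against 4.07% of all genes, CCND1 fell (-0.15) and 5 did not pass. With the 6 h samples fitted alone 4 rose. SPRY4 stood at 9.54, 9.56, 10.7 and 9.51 FPKM with CBD and at 5.63, 6.05, 5.61 and 5.85 with vehicle (0.67 ± 0.040), and DUSP6, the ERK phosphatase, at 21.2, 21.3, 21.2 and 20.7 against 13.7, 13.9, 13.3 and 13.4 (0.60 ± 0.037). ETV5 rose by 0.61 and ETV4 by 0.41, and these are ETS factors that ERK signalling induces. SPRED2 (0.02), PHLDA1 and DUSP5 (-0.01) did not pass.

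Immediate-early factors did not move as a block. EGR1 rose by 0.52 and NR4A1 by 0.23, and neither passed with the 6 h samples fitted alone (adjusted p = 0.0176 and 0.0148). JUN fell, from 26.0, 28.1, 26.7 and 26.5 FPKM in vehicle to 13.5, 17.3, 14.5 and 14.6 with CBD (log2 fold change -0.81 ± 0.055), FOSL2 fell by 0.47 on the log2 scale and JUND by 0.34, of which JUND did not pass with the 6 h samples fitted alone (adjusted p = 0.0218). FOS, FOSB, FOSL1, EGR2 and EGR3 were under the filter. The JUN effect was -0.16 at 3 h and did not pass there, and its change to 6 h of -0.64 did.

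RGS4, which shortens signalling by Gi and Gq coupled receptors, stood at 34.3, 34.3, 33.8 and 33.6 FPKM with CBD and at 67.8, 87.2, 101 and 85.1 with vehicle, a ratio of 0.398 (log2 fold change -1.29 ± 0.081). The CBD samples were almost equal, and vehicle replicate 1 was the lowest of the vehicle samples. Of 14 RGS genes tested 3 fell and 1 rose, beside 6.13% and 4.07% of all genes. Besides RGS4, RGS2 (-0.26) and RGS12 (-0.16) fell, RGS16 rose by 0.20, and the other 10 did not pass. With the 6 h samples fitted alone RGS4 passed and these 3 did not (adjusted p = 0.0430, 0.0228 and 0.0356). RGS4 was at 58.9 ± 3.5 FPKM in vehicle samples at 3 h and 85.3 ± 13.7 at 6 h, and at 44.8 ± 1.2 and 34.0 ± 0.34 with CBD (SD, n = 4).

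Hypoxia-inducible genes were lower with CBD at 6 h as a group. Of 20 tested, 15 fell and none rose, against 6.13% of all genes, and the median was -0.28. With the 6 h samples fitted alone, 4 passed, and without vehicle replicate 3 there were 9. STC1, stanniocalcin, stood at 3.47, 3.43, 3.63 and 3.497 FPKM with CBD and at 5.22, 6.34, 6.69 and 6.27 with vehicle (-0.66 ± 0.059). SLC16A3, the lactate exporter MCT4, stood at 1.89, 1.86, 1.98 and 1.61 against 2.11, 3.71, 4.69 and 3.26 (-0.62 ± 0.13, adjusted p = 0.000854, and 0.0567 with the 6 h samples alone). ADM (-0.41), BNIP3 (-0.41), SLC2A1, the glucose carrier GLUT1 (-0.35), PFKFB4 (-0.35), KDM3A (-0.35) and VEGFA (-0.30) fell too. NDRG1 had a log2 fold change of -0.29 with overlapping groups, and its call was lost in 13 of 17 other settings (adjusted p up to 0.119).

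In this group the level of the vehicle samples was spread more widely at 6 h, and was higher at later times, than that of the CBD samples. The mean log2(FPKM + 1) of the 20 genes was 3.34, 3.52, 3.62 and 3.51 in vehicle replicates 1 to 4 at 6 h and 3.23, 3.20, 3.22 and 3.20 in the CBD samples. Vehicle replicate 1 stood nearest to the CBD samples, with 18 of the 20 genes above the CBD mean. In vehicle cultures the group's level was 3.22 ± 0.021 after 3 h of treatment and 3.49 ± 0.12 after 6 h, then 3.72 ± 0.039 and 4.16 ± 0.10 after 12 and 24 h. In CBD cultures it was 3.19 ± 0.022, 3.21 ± 0.016, 3.31 ± 0.033 and 3.37 ± 0.038 (SD, n = 4). At 3 h the treatments were close and 1 of the 20 genes was lower with CBD. Changes over time within a treatment were not tested. Glycolytic enzymes as such moved less: of 16, ALDOC (-0.22) and PKM (-0.09) fell, and LDHA was at -0.09 without passing (adjusted p = 0.0180). Neither ALDOC nor PKM passed with the 6 h samples fitted alone (adjusted p = 0.0313 and 0.0208).

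**Figure D5:**
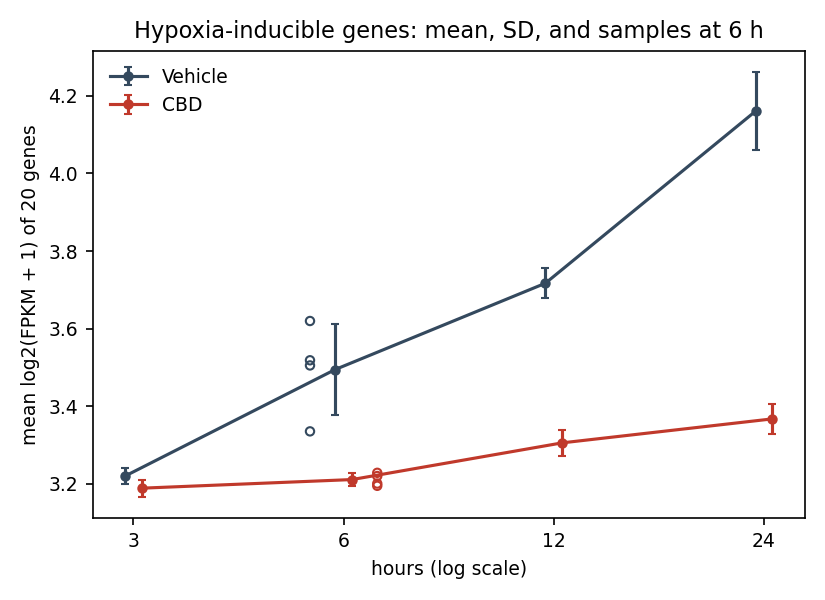
Mean log2(FPKM + 1) of 20 hypoxia-inducible genes by hours of treatment (log axis), as group means with SD (n = 4) for vehicle (dark blue) and CBD (red), with the single samples at 6 h as open circles. The vehicle mean goes from 3.22 at 3 h to 4.16 at 24 h while the CBD mean stays between 3.19 and 3.37.

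Mitosis genes were lower by small amounts. Of 24 tested, 11 fell, against 6.13% of all genes, and none rose, with a median of -0.14. With the 6 h samples fitted alone 4 passed, and without CBD replicate 3 there were 6. AURKA stood at 27.5, 27.5, 27.2 and 27.4 FPKM with CBD and at 32.3, 31.4, 32.1 and 32.1 with vehicle (-0.22 ± 0.021). KIF20A (-0.26), TPX2 (-0.23), PLK1 (-0.23) and AURKB (-0.19) fell as well, and MKI67 (-0.31) fell with overlapping groups (adjusted p = 0.0413 with the 6 h samples fitted alone). CDK1 (-0.03), CCNA2 (-0.05) and CCNB1 (-0.10) did not pass. CBD replicate 4 stood nearest to vehicle, with a group level of 6.01 beside 5.86 to 5.91 in the other CBD samples and 6.04 to 6.10 in vehicle. Of 26 replication genes 4 fell and MCM5 rose, beside 6.13% and 4.07% of all genes. None of the 26 passed with the 6 h samples fitted alone. Of 14 growth arrest and p53 target genes none rose and 4 fell, beside 6.13% of all genes. They were BTG2 (-0.27), TP53INP1 (-0.18), CDKN2C (-0.14) and BTG1 (-0.10), with 1 left when the 6 h samples were fitted alone. The p53 targets CDKN1A (0.11), MDM2 (-0.06) and GADD45A (0.13) did not pass.

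Genes of neuroblastoma identity changed in few members. MYCN stood between 1814 and 1960 FPKM with CBD and between 1421 and 1504 with vehicle (1.28 times, log2 fold change 0.36 ± 0.036), and TBX2 rose by 0.18, a call lost in 8 of 18 other settings (adjusted p up to 0.0493). HAND2 (-0.01), GATA3 (-0.03) and ISL1 (-0.09) did not pass. Among 15 catecholamine and granule genes, VGF, a secreted neuropeptide precursor (0.52), and GCH1 (0.17) rose, and the chromogranins CHGA (-0.29) and CHGB (-0.32), SCG3 (-0.29) and DBH (-0.23) fell, with 1 in each direction left when the 6 h samples were fitted alone. Among 16 neuronal cytoskeleton genes STMN4 (-0.64) and NEFH (-0.31) fell, NEFH not with the 6 h samples fitted alone (adjusted p = 0.0515). STMN4 stood at 19.5, 20.9, 18.6 and 20.2 against 30.5, 30.6, 32.2 and 32.7 FPKM, and its effect was 0.04 at 3 h.

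Further large falls were found outside the groups above. TXNIP, which binds thioredoxin and curbs glucose uptake, stood at 20.2, 20.1, 19.6 and 19.02 FPKM with CBD and at 28.0, 29.95, 30.03 and 31.1 with vehicle (-0.57 ± 0.032), while of its relatives ARRDC3 rose by 0.26 and ARRDC4 fell by 0.15 on the log2 scale (adjusted p = 0.0233 with the 6 h samples fitted alone). SH2D3C, a signalling adaptor, stood at 3.80, 3.85, 3.55 and 3.596 against 6.46, 7.23, 6.78 and 6.09 (-0.70 ± 0.053). GEM, a small GTPase, stood at 14.9, 15.6, 14.3 and 15.8 against 24.0, 23.7, 24.8 and 23.7 (-0.63 ± 0.044). CHODL fell by 0.49 and P2RY11 by 0.54 on the log2 scale. P2RY11 shares 52.7% of its 50-base words with the readthrough transcript PPAN-P2RY11, so its value is uncertain.

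Housekeeping groups hardly moved. Over all genes tested 4.07% rose and 6.13% fell, so the small counts below are not a result about a group. None of 31 proteasome subunits and none of 77 mitochondrial ribosomal proteins passed, and their medians were 0.015 and 0.006. Of 82 cytosolic ribosomal protein entries 5 rose and 1 fell (median 0.018), of 78 respiratory chain genes 3 rose (0.050), and of 368 numbered ZNF genes 7 rose and 12 fell (-0.011). With the 6 h samples fitted alone no cytosolic ribosomal protein entry passed, 1 mitochondrial ribosomal protein and 1 respiratory chain gene rose, and of the ZNF genes 1 rose and 1 fell. Of 13 BCL2 family genes PMAIP1 alone rose (0.16), of 18 autophagy genes SQSTM1 alone (0.37), and of 19 lysosomal genes GLA (-0.25) and GLB1 (-0.15) fell. PMAIP1 and GLB1 did not pass with the 6 h samples fitted alone (adjusted p = 0.0178 and 0.0438), and GLB1 was lost in 12 of 18 other settings. None of 7 TGF-beta and BMP response genes passed. Of 12 snoRNA host transcripts SNHG15 rose (0.28, adjusted p = 0.0107 with the 6 h samples fitted alone).

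The genes called at 6 h were compared with those called at the neighbouring times, each time having its own CBD and vehicle samples. Of the 514 higher at 6 h, 72 were also higher at 3 h (14% of the 514 and 48.3% of those higher at 3 h) and 310 at 12 h (60.3% and 27.8%). Of the 774 lower, 85 were also lower at 3 h (11% and 52.8%) and 490 at 12 h (63.3% and 34.6%). Few were called in the opposite direction at 3 h (5 and 0) or at 12 h (2 and 3). The 24 h counts were 25 and 35. Over all 12621 genes, calls for 3 h numbered 149 higher and 161 lower. Those for 12 h numbered 1117 higher and 1416 lower, and those for 24 h 2623 higher and 2691 lower. These totals are the background for the overlaps. The 25 lower genes stand beside 2691 of all genes and the 35 higher ones beside 2623, so growing reversal is not shown. The CBD effect itself changed in 265 genes from 3 h to 6 h, upward in 89 and downward in 176 (0.705% and 1.39%), so that 33.6% of the calls were upward. That share depended on the setting. It was 44.7% after quantile normalization, 43.2% after median-ratio scaling, 45.7% with a replicate block and 48.3% with the samples of the contrast fitted alone. With 1 of the 8 samples at 6 h left out it was 28.7% to 41.4%. From 6 h to 12 h it changed in 294, upward in 181 and downward in 113 (1.43% and 0.895%). For 991 of the 1288 neither change passed. Those larger at 6 h than at both neighbouring times were MT1X and CSRP1 among the higher genes, and SLC39A10, ACIN1, NOP14, GRK5 and VCL among the lower. CSRP1, a LIM protein of the cytoskeleton, stood at 23.6, 23.0, 24.8 and 22.6 FPKM with CBD and at 13.7, 14.2, 13.8 and 14.3 with vehicle (0.71 ± 0.029), and was chosen for mention after its values were seen.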

How the data were processed

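PolyA RNA of the SK-N-BE(2) cultures was sequenced as single reads of 50 bases. According to the study's methods and processing notes, the authors trimmed reads with Trimmomatic 0.36, aligned them with TopHat to hg19 and computed FPKM per gene with Cufflinks. The TopHat version differs between sources, and the gene annotation is not given in the sources used here. The deposited FPKM values were used as given. A second deposited table holds the authors' own log2 fold changes and q-values per time point and was not used.

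FPKM were transformed to log2(FPKM + 1), and genes with a mean of at least 1 FPKM over the 32 samples were fitted with limma 3.58.1 in R 4.3.3 (8 group means, eBayes with trend, Benjamini-Hochberg adjustment within each comparison, threshold 0.01). The contrasts were CBD minus vehicle at 6 h and its change from 3 h and to 12 h, with the other times as context. The limma fit was tested on simulated data. The sources do not say that replicates came from separate passages or days, so p-values measure the spread between these samples, which may be technical. FPKM carry no read counts, so sequencing depth is unknown, and relative depth was estimated from 1414 weakly expressed genes. FPKM is a share of each library, and no shared scaling beyond it was applied in the main fit.

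Genes named are the 12 largest rises and the 12 largest falls among called genes whose groups did not overlap (short RNA entries left out, none of 619 tested being called by limma), the 6 largest changes of effect in each direction, and members of the gene lists. All gene and marker lists were chosen with earlier results of these data known. Gene positions are from GENCODE v44 mapped to GRCh37, upstream sequences from RefSeq (GRCh38.p14) were placed in GRCh37 by exact match, and figures were drawn with matplotlib 3.10.9 in Python 3.11.15. Some members of the gene lists count in the totals but are not reported here by name.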

Additional observations from a re-analysis of the deposited data

Results flagged for a closer look

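Among 66 groups of 4 samples of the named genes at 6 h, 4 held a sample far from the other 3, and chance alone flags about 1 in 20. MT1E stood at 157.4 FPKM in CBD replicate 2 and at 49.18 to 67.54 in the others. MT1M stood at 0.06029 in vehicle replicate 2 and was listed at 0 in the other vehicle samples. SLC30A1 stood at 6.99 FPKM in vehicle replicate 2 and at 6.251 to 6.329 in the others, and CHODL at 7.191 in CBD replicate 3 and at 7.943 to 8.05 in the others.

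The CBD effect at 6 h differed from that at 3 h in 265 genes by limma's interaction test. On the log2 scale the change was 2.233 for MT1G, 2.136 for MT1E, 1.682 for MT2A, 1.782 for MT1X, 1.816 for MT1F, 1.886 for MT1M and 2.231 for MT1H. It was 1.01 for HMOX1, 0.6094 for SLC7A11 and 0.4879 for SLC3A2, and for the sterol and acetate genes 0.6239 for HMGCS1, 0.4636 for MVD and 0.322 for ACSS2. Effects moved down by -0.9024 for RGS4, -0.7201 for SH2D3C, -0.6847 for STMN4, -0.6442 for JUN, -0.6186 for STC1, -0.5969 for SLC39A10, -0.4114 for GEM, -0.3056 for CHODL and -0.2172 for ALAS1.

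The effect at 12 h differed from that at 6 h in 294 genes by the same test, which uses the same 8 samples at 6 h. It moved up by 1.06 for SLC39A10, 0.9733 for FABP3, 0.7618 for ACSS2, 0.6938 for HMGCS1, 0.5986 for MVD and 0.5346 for SCART1. It moved down by -1.293 for MT1X, -0.8527 for SLC30A1, -0.6438 for HSPA5, -0.5335 for HSPA1B, -0.5151 for TM4SF4 and -0.4037 for DNAJB1.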

How the results depend on the processing

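Each result was recomputed under 19 other settings. Direction was checked for the 24 genes named for size, and none of them reversed. Some group medians near 0 changed sign between settings. They ran from -0.027 to 0.017 for AP-1 and immediate-early factors and from -0.031 to 0.005 for catecholamine and granule genes. With the samples of the contrast fitted alone, 425 genes passed at 6 h (187 higher, 238 lower) and the effect changed in 118 genes from 3 h to 6 h, with fewer samples to estimate the spread. At an adjusted p of 0.05 the counts were 2434 (1022 higher, 1412 lower), 737 from 3 h to 6 h and 799 from 6 h to 12 h. Leaving out 1 of the 8 samples at 6 h gave 923 to 1543 genes at 6 h, 157 to 415 from 3 h to 6 h and 203 to 328 from 6 h to 12 h, with 157 without CBD replicate 3 and 415 without CBD replicate 4, and the cause was not tested. Deviations of CBD and vehicle replicates of the same number had correlations of 0.00134 to 0.0389, and those of different numbers -0.0421 to 0.0478. CBD replicates 3 and 4 were nearer to a vehicle sample of another number. Whether a shared number means a shared batch was not tested. With a replicate block 1272 genes passed at 6 h, 1065 of them shared with the 1288, 164 from 3 h to 6 h and 226 from 6 h to 12 h. Other values added, filters, scalings and eBayes settings kept each of these counts within 1.5 times. Of the 24 genes named for size, 23 passed in every setting run for them, and SLC16A3 did not pass with the 6 h samples alone (adjusted p = 0.0567). The number of samples, and at low FPKM the unknown depth, limit small effects.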
